A study of Mus musculus with 59 samples.

Results

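The genes described here are the thyroid hormone receptors, their retinoid X receptor partners and a set of their coregulators in mouse brown adipose tissue (BAT). They were chosen by symbol, as a list of 9 genes made up of the receptors Thra and Thrb, the partners Rxra, Rxrb and Rxrg, the corepressor Ncor1 with its deacetylase Hdac3, and the coactivators Ncoa1 and Ncoa2. All 9 were found among the 55341 genes of each of the 3 deposited count tables, and all 9 passed the filter on low counts in every experiment.

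RNA-seq libraries were made from the BAT of 59 male C57BL/6J mice aged 8 to 12 weeks, 1 library per mouse. In the thyroid hormone (TH) experiment, wild-type (WT) mice received PTU in their food, which blocks TH synthesis, and then either no hormone or a single intraperitoneal injection of T3 and T4, with BAT taken 3, 6, 12 or 24 h later (4 mice in each of the 5 groups). The same experiment held BATKO mice given PTU (5 mice) or PTU and TH for 24 h (5 mice). In the temperature experiment, control mice (CTRL) and BATKO mice were kept for 24 h at 30 °C (4 CTRL and 5 BATKO) or 4 °C (3 CTRL and 4 BATKO), and in the diet experiment they received chow (4 CTRL and 2 BATKO) or a high-fat diet (HFD) for 3.5 days (4 CTRL and 3 BATKO). The sample labels and the study's methods do not say which gene BATKO mice lack or which promoter drove its removal, so that no check of the targeted gene was possible. The CTRL genotype is likewise not described beyond its name.

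Depth ranged from 7612059 to 18073627 counts per mouse. Counts are given as normalised read counts, scaled to the mean library of the experiment, and mitochondrial genes took 39.2% to 55.7% of the counts. The 7 brown adipocyte markers were detected in every group, with a sum between 734 and 22850 CPM (counts scaled to one common library size), against 10.4 to 324 for 3 white adipocyte markers, 12.6 to 163 for 7 immune markers, 224 to 678 for 4 endothelial markers, 135 to 420 for 4 fibroblast markers, 8.69 to 57.4 for 3 Schwann cell markers and 102 to 1449 for 3 erythroid markers. The 4 general adipocyte markers summed to between 4023 and 11800 CPM. The 8 skeletal muscle markers ranged from 0.719 to 8287 CPM and exceeded 1000 CPM in 11 mice, among them CTRL mice 20 and 21 and BATKO mice 13 and 17 at 30 °C, and WT mouse B12 at 6 h after TH. In whole tissue, fewer cells of one type and less RNA per cell cannot be told apart.

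TH acts mainly through the nuclear receptors encoded by Thra and Thrb. These receptors sit on DNA as heterodimers with a retinoid X receptor, often at pairs of the hexamer AGGTCA in the same direction. Without T3 the heterodimer holds the corepressor NCoR1, which carries the histone deacetylase HDAC3, and binding of T3 exchanges them for coactivators of the p160 family such as those encoded by Ncoa1 (SRC-1) and Ncoa2 (TIF2). In brown fat, TH is best known for its part in thermogenesis, together with the sympathetic response to cold.

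The promoters of 3 genes on which the results turn are shown, Rxrb and Ncoa1, whose response to TH differed between the genotypes, and Thrb, whose mean was lower in BATKO mice in every comparison of the genotypes. RefSeq promoter sequences on the GRCm38.p6 build matched 6 of the 9 genes, with 11 promoters of 250 bases before and 50 after a start site. Thra, Ncoa2 and Hdac3 had no entry. Below are the 250 bases before a start site, 5′ to 3′ on the strand of the gene, for Rxrb (plus strand, chr17:34031562-34031811), Ncoa1 (minus strand, chr12:4477183-4477432) and Thrb (plus strand, chr14:17660710-17660959), with the hexamer AGGTCA or its reverse complement in capitals.
Rxrb: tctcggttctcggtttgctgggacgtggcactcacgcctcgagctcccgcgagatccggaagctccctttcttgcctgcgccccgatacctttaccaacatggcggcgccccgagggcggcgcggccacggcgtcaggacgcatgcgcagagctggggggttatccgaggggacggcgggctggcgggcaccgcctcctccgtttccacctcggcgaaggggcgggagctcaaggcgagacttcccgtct
Ncoa1: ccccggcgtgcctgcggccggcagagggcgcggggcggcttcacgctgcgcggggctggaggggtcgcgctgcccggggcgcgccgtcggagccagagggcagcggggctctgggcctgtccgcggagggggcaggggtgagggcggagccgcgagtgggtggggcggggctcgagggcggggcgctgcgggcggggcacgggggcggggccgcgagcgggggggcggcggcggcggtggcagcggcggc
Thrb: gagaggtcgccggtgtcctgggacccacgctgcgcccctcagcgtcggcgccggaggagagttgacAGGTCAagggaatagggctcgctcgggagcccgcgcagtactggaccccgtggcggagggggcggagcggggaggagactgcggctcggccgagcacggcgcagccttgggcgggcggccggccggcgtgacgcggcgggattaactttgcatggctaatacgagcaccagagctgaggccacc
The hexamer on either strand was present in 3 of the 11 promoters, against 16.3% of all 32851 promoters of this length. The Thrb promoter shown held 1, its first base 184 bases before the start site. The Rxrg promoter at chr1:167618015-167618264 held 1, which began 88 bases before the start, and the Rxra promoter at chr2:27709042-27709291 held 2, which began 87 and 48 bases before it. Neither the Rxrb nor the Ncoa1 promoter shown held these letters. A pair of hexamers in one direction with 4 bases between them was in 0 of the 11 promoters and in 0.0152% of all promoters.

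Levels were compared between genes as CPM per kilobase of merged exons, on the GENCODE annotation of GRCm38. In PTU-fed WT mice, Ncoa1 was the highest at 12.9 ± 1.13 (SD, n = 4), followed by Rxrg at 8.72 ± 0.918 and Hdac3 at 8.38 ± 1.06, whose ranges overlapped each other but not that of Ncoa1. Ncor1 (6.54 ± 0.194), Thra (6.05 ± 0.870), Thrb (4.86 ± 0.271), Rxra (4.39 ± 0.406) and Ncoa2 (3.82 ± 0.300) came next, each overlapping the gene after it. Rxrb was the lowest at 1.12 ± 0.240, with no mouse in the range of Ncoa2. This order depended on the length used. With the longest annotated transcript Ncoa1 stayed the highest (15.1) and Rxrb the lowest (1.69), but Thra came second (11.4), above Rxrg (9.49) and Hdac3 (9.47), and Ncoa2 (7.30) stood above Thrb (5.80) and Rxra (4.89).

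In CTRL mice at 30 °C and on chow, Hdac3 was the highest per length (10.8 ± 0.976 and 12.6 ± 1.20) and Rxrb again the lowest (1.81 ± 0.114 and 1.89 ± 0.464). Of the pair of TH receptor genes, Thra made up 55.3% ± 2.83 of the summed level per length in PTU-fed WT mice, 48.5% ± 7.12 in CTRL mice at 30 °C and 44.3% ± 11.2 in CTRL mice on chow (SD, n = 4 in each). With the longest annotated transcript in place of merged exons, these shares were 66.1%, 59.6% and 55.2%. The order of the means of the receptor pair in CTRL mice therefore depended on the length used. With merged exons the Thra share ranged from 43.0% to 58.3% at 30 °C and from 34.4% to 59.0% on chow. The levels of Thra and Thrb overlapped in both CTRL groups. Of the 3 retinoid X receptors, Rxrg took the largest share in PTU-fed WT mice, 61.2% ± 2.45, with 30.9% ± 2.28 for Rxra and 7.85% ± 1.65 for Rxrb.

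The first comparison asked how the TH machinery itself responded to TH over time in WT mice. Rxrb rose within 3 h, to 1.83 times the mean of PTU-fed mice, and stayed high. Ncoa1 fell at every time point and Thra at 3 of the 4. Thrb had no call against PTU but rose between 3 h and 24 h. The number of genes called (adjusted p under 0.05, edgeR's quasi-likelihood test) was 3 of 9 at 3 h against 9.19% of all genes tested, 4 of 9 at 6 h against 23%, 4 of 9 at 12 h against 25.7%, and 5 of 9 at 24 h against 32.7%. The 4 time points share the PTU-fed mice, so that they are not independent of each other.

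**Figure D1:**
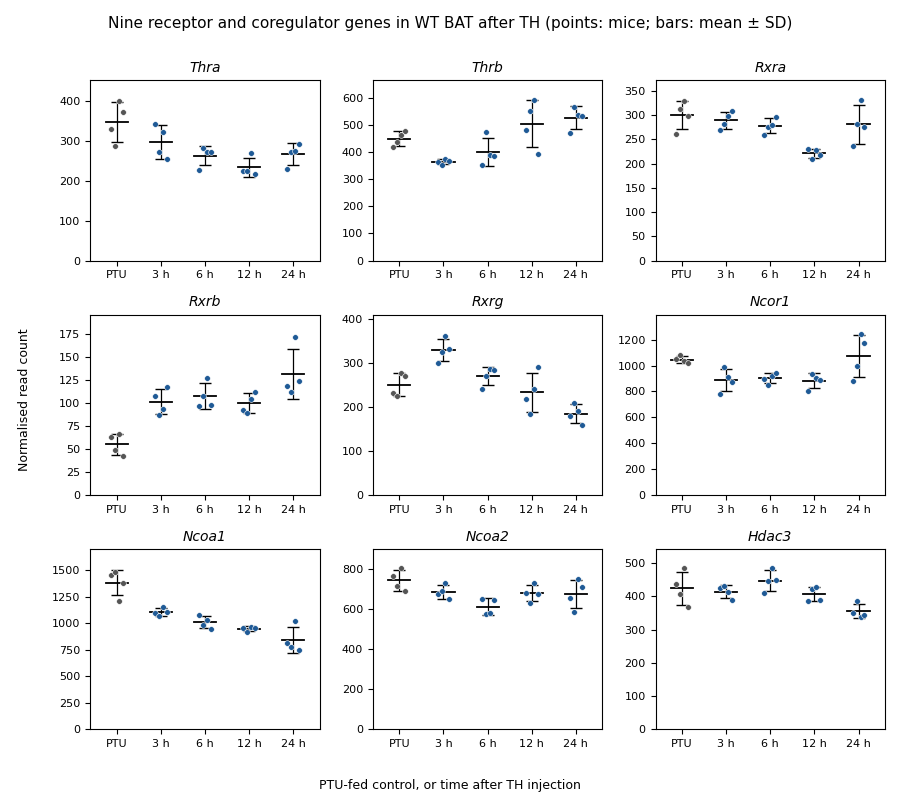
Normalised read counts (y axis, from 0) of the 9 genes in WT mice given PTU alone or taken 3, 6, 12 or 24 h after TH (x axis); each point is a mouse and bars give the mean ± SD (n = 4). All TH-treated mice lie above the PTU-fed mice for Rxrb and below them for Ncoa1 at every time point.

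Thra (ENSMUSG00000058756, chromosome 11, 98740638 to 98769006, plus strand), which encodes the receptor TRα1 and the variant TRα2 that does not bind T3, had normalised counts of 332, 288, 402 and 373 in PTU-fed mice. After TH the mice had 343, 272, 324 and 254 (3 h), 228, 282, 273 and 273 (6 h), 224, 226, 271 and 217 (12 h) and 230.5, 273, 276 and 292 (24 h). The 6 h and 12 h mice all lay below the PTU-fed mice, and the 3 h and 24 h mice overlapped them. The log2 fold change was -0.23 ± 0.12 (SE, adjusted p = 0.248) at 3 h, -0.40 ± 0.12 (SE, adjusted p = 0.0202) at 6 h, -0.57 ± 0.12 (SE, adjusted p = 0.00162) at 12 h and -0.38 ± 0.12 (SE, adjusted p = 0.0211) at 24 h. The 6 h call was lost without any one of mice B4, B5 and B12 (adjusted p = 0.0544 to 0.0708), and the 24 h call when only the groups compared were fitted (-0.36, adjusted p = 0.0568) and without any one of mice B4, B5 and B24 (adjusted p = 0.0552 to 0.078). Mouse B12 was also the 6 h mouse with the highest muscle marker sum, 1685 CPM, and without the mice above 1000 CPM the 6 h value was -0.34, adjusted p = 0.082.

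Thra shares 263 exonic bases with Nr1d1 on the opposite strand, which is 5.7% of its exons. Nr1d1, which encodes the clock repressor REV-ERBα, had 330.3 to 902 normalised counts in PTU-fed mice, 491 to 2264 at 3 h, 1299 to 1921 at 6 h, 366 to 824 at 12 h and 384 to 956 at 24 h. The strand setting of the counting is not given in the sources used here, so that reads of the shared bases cannot be told apart between these genes.

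Thrb (ENSMUSG00000021779, chromosome 14, 17660261 to 18038090, plus strand), which encodes TRβ, had normalised counts of 417, 436, 465 and 479 in PTU-fed mice, 364, 354, 376 and 366 (3 h), 354, 474, 389 and 385 (6 h), 482, 552, 592 and 393 (12 h) and 469, 567, 539 and 533 (24 h). All 3 h mice lay below, and 3 of the 4 mice at 24 h lay above, the range of the PTU-fed mice. None of the 4 time points passed the test against PTU, with log2 fold changes of -0.30 ± 0.11 (SE, adjusted p = 0.1), -0.17 ± 0.11 (SE, adjusted p = 0.3), 0.17 ± 0.11 (SE, adjusted p = 0.295) and 0.23 ± 0.11 (SE, adjusted p = 0.126) in order of time. Between 3 h and 24 h Thrb rose, by 0.53 ± 0.11 (SE, adjusted p = 0.00211), with no overlap of the mice. In the same mice all 8 skeletal muscle markers were called higher at 24 h than at 3 h, with sums of 3.45 to 245 CPM at 3 h and 265 to 1155 CPM at 24 h, and 3 of 4 general adipocyte and 2 of 3 erythroid markers were called lower. Without the mice above 1000 CPM of muscle markers the Thrb value was 0.50, adjusted p = 0.00817. That comparison called 3 of the 9 genes and 21.2% of all genes tested.

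The ratio of Thra to Thrb within a mouse does not depend on the scaling of libraries. The log2 ratio of counts was -0.33, -0.60, -0.21 and -0.36 in PTU-fed mice, -1.10, -1.29, -1.13 and -0.85 at 12 h and -1.03, -1.05, -0.97 and -0.87 at 24 h. The 12 h and 24 h mice all lay below the PTU-fed mice. The difference in means was 0.07 at 3 h (exact permutation test, two-sided, p = 0.6), -0.22 at 6 h (exact p = 0.0857), -0.72 at 12 h (exact p = 0.0286) and -0.60 at 24 h (exact p = 0.0286). Since 0.0286 is the smallest p that 4 against 4 mice allow, the adjusted p over the 4 time points was 0.0571 at 12 h and at 24 h, and neither passed the threshold. In BATKO mice the log2 ratio was 0.49, 0.43, 0.05, -0.02 and 0.20 with PTU. At 24 h after TH it was -0.08, -0.61, -0.18, -0.12 and 0.01 in them. These BATKO groups overlapped, and their difference was not tested.

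Among the retinoid X receptors, Rxrb (ENSMUSG00000039656, chromosome 17, 34031812 to 34038399, plus strand) encodes RXRβ, the most widely expressed of the partners. It had 63.5, 49.3, 66.1 and 42.3 normalised counts in PTU-fed mice, 107, 87.4, 93.3 and 118 (3 h), 96.7, 108, 127 and 98.3 (6 h), 92.8, 89.4, 105 and 112 (12 h) and 118, 112, 172 and 124 (24 h). Every TH-treated mouse was above every PTU-fed mouse. The ratio of means was 1.83 at 3 h and 2.38 at 24 h, and the log2 fold change was 0.86 ± 0.17 (SE, adjusted p = 0.00221) at 3 h, 0.95 ± 0.17 (SE, adjusted p = 0.000376) at 6 h, 0.84 ± 0.17 (SE, adjusted p = 0.000993) at 12 h and 1.24 ± 0.17 (SE, adjusted p = 8.3e-06) at 24 h. These 4 calls held with each mouse left out in turn. The further difference of 0.38 ± 0.16 (SE, adjusted p = 0.0957) between 3 h and 24 h did not pass. The share of Rxrb in the summed level per length of the 3 retinoid X receptors was 7.85% ± 1.65 in PTU-fed mice and 20.0% ± 2.75 at 24 h (SD, n = 4). Over the same groups the summed brown adipocyte markers, of which 2 of 7 rose and 2 fell at 24 h, went from 7065 to 9252 CPM in PTU-fed mice to 9629 to 15210 CPM at 3 h and 9837 to 16980 CPM at 24 h. The summed general adipocyte markers, of which 3 of 4 fell at 24 h and 4 of 4 at 12 h, were at 8144 to 9303 CPM in PTU-fed mice, 6797 to 8402 CPM at 3 h and 4023 to 4295 CPM at 24 h. The part of these markers in the changes after TH was not tested.

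Rxrg (ENSMUSG00000015843, chromosome 1, 167598384 to 167639623, plus strand) encodes RXRγ, the partner with the narrowest range of tissues. It had 231, 223, 276 and 270.3 normalised counts in PTU-fed mice, 299, 324, 361 and 330.2 at 3 h and 178, 209, 190.4 and 158 at 24 h. The 3 h mice were all above, and the 24 h mice all below, the PTU-fed mice. Rxrg rose by 0.39 ± 0.12 (SE, adjusted p = 0.0464) on the log2 scale at 3 h and had changed by -0.45 ± 0.12 (SE, adjusted p = 0.00853) at 24 h, with 0.11 ± 0.12 (SE, adjusted p = 0.543) at 6 h and -0.11 ± 0.12 (SE, adjusted p = 0.569) at 12 h between them. From 3 h to 24 h, between which the muscle markers rose and the general adipocyte and erythroid markers fell as given for Thrb, the log2 fold change was -0.84 ± 0.12 (SE, adjusted p = 6.53e-05), and without the mice above 1000 CPM of muscle markers -0.89, adjusted p = 0.000142. The rise at 3 h lost its call without the filter on low counts (0.39, adjusted p = 0.0825), in a fit of all 30 mice (0.41, adjusted p = 0.0827) and without any one of mice B2, B3, B5, B8, B9 and B11 (adjusted p = 0.0625 to 0.144). The 24 h call and the 3 h to 24 h call held with each mouse left out in turn.

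Rxra (ENSMUSG00000015846, chromosome 2, 27676440 to 27762957, plus strand), which encodes RXRα, passed the test at 12 h alone among the 4 time points, where it fell from 262, 312, 328 and 298 to 231, 209, 227 and 217 normalised counts, with no overlap. The log2 fold change at 12 h was -0.44 ± 0.10 (SE, adjusted p = 0.00296). At 24 h the mice had 235, 281, 332 and 275, which spans the range of the PTU-fed mice, and the difference was -0.10 ± 0.10 (SE, adjusted p = 0.494). Whether the 12 h value differed from those at other time points was not tested.

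Ncoa1 (ENSMUSG00000020647, chromosome 12, 4247362 to 4477182, minus strand) had the lowest adjusted p of the 9 genes at 24 h. Its normalised counts were 1456, 1481, 1211 and 1383 in PTU-fed mice, 1099, 1063, 1148 and 1107 (3 h), 1077, 979.9, 1032 and 949 (6 h), 949.7, 912, 966 and 956 (12 h) and 817, 775, 1021 and 743 (24 h). Every TH-treated mouse lay below every PTU-fed mouse. The log2 fold change was -0.32 ± 0.09 (SE, adjusted p = 0.0352) at 3 h, -0.45 ± 0.10 (SE, adjusted p = 0.00169) at 6 h, -0.55 ± 0.10 (SE, adjusted p = 0.000207) at 12 h and -0.72 ± 0.10 (SE, adjusted p = 7.22e-06) at 24 h, where the mean was 0.607 times that of PTU-fed mice. The fall continued after 3 h, with -0.40 ± 0.10 (SE, adjusted p = 0.00517) between 3 h and 24 h, though not past the threshold when only those groups were fitted (-0.39, adjusted p = 0.0508). The 3 h call was lost without the filter on low counts (-0.32, adjusted p = 0.113), in a fit of all 30 mice (-0.30, adjusted p = 0.0999) and without any one of mice B2, B3, B5, B7, B8, B9 and B11 (adjusted p = 0.0521 to 0.111), and the calls at 6, 12 and 24 h held with each mouse left out in turn.

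Ncoa2 (ENSMUSG00000005886, chromosome 1, 13139105 to 13374083, minus strand), of the same coactivator family, had 768, 716, 807 and 691 normalised counts in PTU-fed mice and 653, 574, 579 and 645 at 6 h. The 6 h mice all lay below the PTU-fed mice, and Ncoa2 fell at that time with a log2 fold change of -0.28 ± 0.09 (SE, adjusted p = 0.027). This call was lost without the filter on low counts (-0.28, adjusted p = 0.129), in a fit of all 30 mice (-0.27, adjusted p = 0.0552) and without any one of mice B2, B4, B13 and B15 (adjusted p = 0.0665 to 0.082). At 3, 12 and 24 h the log2 fold changes were -0.12, -0.13 and -0.14, and none passed.

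Ncor1 (ENSMUSG00000018501, chromosome 11, 62316426 to 62458541, minus strand), the corepressor, did not pass the test at any of the 4 time points. It had 1051, 1081, 1036 and 1018 normalised counts in PTU-fed mice, 777, 985, 911 and 872 at 3 h and 879, 1000.4, 1244 and 1173 at 24 h. All mice at 3, 6 and 12 h lay below the PTU-fed mice, with log2 fold changes of -0.24 ± 0.10 (SE, adjusted p = 0.142), -0.21 ± 0.10 (SE, adjusted p = 0.131) and -0.24 ± 0.10 (SE, adjusted p = 0.0809), and the 24 h mice lay on both sides of them at 0.04 ± 0.10 (SE, adjusted p = 0.803). The difference of 0.28 ± 0.10 (SE, adjusted p = 0.0536) between 3 h and 24 h missed the threshold, and passed it with DESeq2 (0.28, adjusted p = 0.0316) and without mouse B8 or B24 (adjusted p = 0.0383 and 0.0114).

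Hdac3 (ENSMUSG00000024454, chromosome 18, 37935844 to 37955016, minus strand), whose product is the deacetylase of the NCoR1 complex, fell at 24 h, from 437, 407, 486 and 367 to 351, 385, 338 and 345 normalised counts. The ranges overlapped, and the log2 fold change was -0.26 ± 0.09 (SE, adjusted p = 0.0346). At 3, 6 and 12 h it did not pass, and the difference between 3 h and 24 h did not pass either (-0.22 ± 0.09 (SE, adjusted p = 0.0877)). The 24 h call was lost without the filter on low counts (-0.26, adjusted p = 0.16), when only the groups compared were fitted (-0.25, adjusted p = 0.13) and without any one of mice B2, B4, B24, B27 and B28 (adjusted p = 0.0566 to 0.13).

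**Figure D2:**
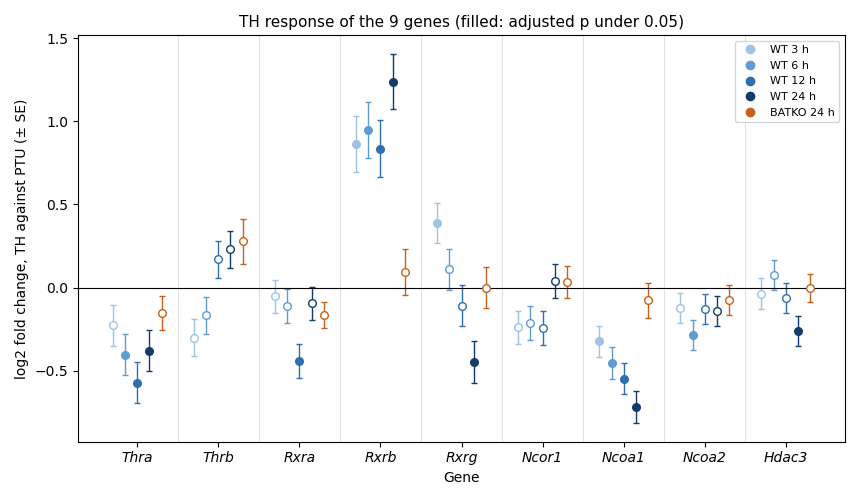
Log2 fold change ± SE (y axis) of the 9 genes (x axis) after TH against PTU-fed mice of the same genotype, for 4 time points in WT mice and 24 h in BATKO mice; filled points passed the threshold of 0.05 on the adjusted p. Rxrb lies between 0.84 and 1.24 at all WT time points, Ncoa1 moves from -0.32 at 3 h to -0.72 at 24 h, and no BATKO point is filled.

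Other genes of the pathway were counted in 4 lists that complete the complexes, to be read against the calls over all genes, from 9.19% at 3 h through 23% and 25.7% up to 32.7% at 24 h. At 24 h in WT mice, 4 of the 8 corepressor partners reported here fell and none rose, and Tbl1x, a subunit of the NCoR complex, had the lowest adjusted p (-1.24 ± 0.09 (SE, adjusted p = 2.62e-09)). The median log2 fold change of these 8 genes was -0.28 against 0.01 over all genes tested. Tbl1x was called lower at 3, 6 and 12 h too, with log2 fold changes of -0.56, -0.82 and -1.08. At those times 1, 2 and 2 of the 8 fell and none rose.

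Of 11 further coactivators, 4 rose at 24 h, of which Ppargc1b, the PGC-1β gene, had the lowest adjusted p (0.77 ± 0.20 (SE, adjusted p = 0.00574)), and 1 fell, the acetyltransferase gene Kat2b (-0.47 ± 0.14 (SE, adjusted p = 0.0157)). The median of that list was 0.27. At 3 h, 2 rose and none fell, led by Ppargc1a, the PGC-1α gene and a main coactivator of thermogenic genes (1.42 ± 0.40 (SE, adjusted p = 0.027)). At 6 h, 3 rose and 1 fell, and at 12 h, 2 rose and none fell.

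Of 14 nuclear receptors that also pair with retinoid X receptors, 11 passed the filter on low counts. At 24 h, 2 rose, led by Ppard, the PPARδ gene (1.26 ± 0.20 (SE, adjusted p = 5.72e-05)), and 3 fell, led by Ppara, the PPARα gene (-1.16 ± 0.24 (SE, adjusted p = 0.000739)). The median was 0.01, equal to that over all genes to 2 decimals. At 3 h 1 rose and none fell, at 6 h 1 rose and 1 fell, and at 12 h 1 rose and 3 fell. Of 7 genes known to respond to T3, 6 passed the filter and 5 rose at 24 h, led by Hr, a direct TH target that encodes a receptor corepressor (4.57 ± 0.31 (SE, adjusted p = 7.22e-10)). In the same list 4 rose at each of 3, 6 and 12 h, and 1 fell, at 6 h, the malic enzyme gene Me1 (-0.89 ± 0.21 (SE, adjusted p = 0.00369)).

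The second comparison asked whether BATKO mice made the same response 24 h after TH. None of the 9 genes passed the test in them, and neither did any of the 14178 genes tested (673 genes had an unadjusted p under 0.05, and DESeq2 also called 0). Of the 9, 1 had an unadjusted p under 0.05, Rxra, at -0.16 ± 0.08 (SE, adjusted p = 0.963). The 4 pathway lists also had 0 calls in BATKO mice.

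For Rxrb, the BATKO mice had 140.3, 153, 195, 121 and 136 normalised counts with PTU and 170.2, 149, 189, 154 and 132 after TH, while the WT mice, on the scale of the same 30 libraries, had 67.3, 51.4, 69.7 and 43.8 and 124, 117, 180.1 and 131. The BATKO groups overlapped each other, and both lay above the PTU-fed WT mice. The log2 fold change of Rxrb in BATKO mice was 0.09 ± 0.14 (SE, adjusted p = 0.986), and the interaction term, the BATKO response minus the WT response, was -1.15 ± 0.22 (SE, adjusted p = 0.000997).

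Ncoa1 had 357, 409, 349, 492 and 404 normalised counts in BATKO mice with PTU and 336, 376, 319.6, 397 and 484 after TH, against 1542, 1546, 1276 and 1432 and 854, 808, 1070.1 and 789.7 in WT mice. Both BATKO groups lay below both WT groups. The response in BATKO mice was -0.08 ± 0.10 (SE, adjusted p = 0.986), and the interaction term was 0.64 ± 0.16 (SE, adjusted p = 0.0066). Rxrb and Ncoa1 were the 2 of 9 genes whose response differed between the genotypes, against 12.3% of all genes tested, and both calls held with each mouse left out in turn. For Thrb the interaction term was 0.04 ± 0.20 (SE, adjusted p = 0.926) and for Thra 0.23 ± 0.16 (SE, adjusted p = 0.371), which did not pass. A term that misses the threshold does not show that the responses were alike. Among cell markers, the interaction term was called positive for 3 of 4 general adipocyte and 1 of 7 brown adipocyte markers. It was called negative for 1 of 3 white adipocyte markers, and the part of these markers was not tested. Of the lists, the interaction term was called positive for 3 of 8 corepressor partners, led by Tbl1x (1.11 ± 0.15 (SE, adjusted p = 1.59e-05)), positive for 1 and negative for 2 of 11 RXR-pairing receptors, led by Ppara (0.90 ± 0.29 (SE, adjusted p = 0.0422)) and Ppard (-1.26 ± 0.24 (SE, adjusted p = 0.0008)), negative for 2 of 6 T3-responsive genes, led by Hr (-4.07 ± 0.59 (SE, adjusted p = 4.59e-05)), and not called for the coactivators.

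**Figure D3:**
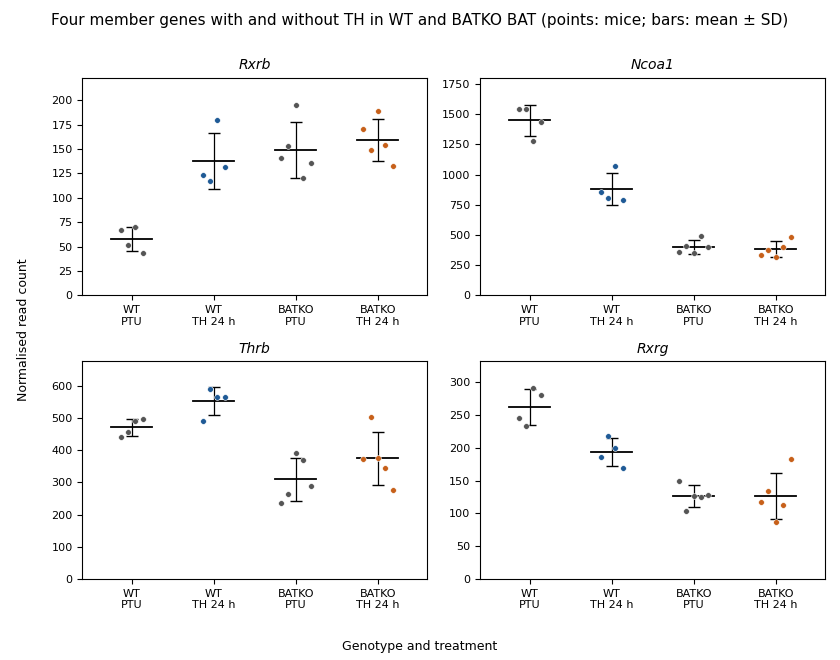
Normalised read counts (y axis, from 0) of Rxrb, Ncoa1, Thrb and Rxrg in WT and BATKO mice given PTU or PTU and TH for 24 h (x axis); points are mice and bars give the mean ± SD (n = 4 for WT and 5 for BATKO). The PTU-fed groups of the 2 genotypes do not overlap in any of the 4 panels, but 70.3% of all genes tested were called between these groups. Of the genes not shown, Thra and Rxra overlapped there, and Ncor1, Ncoa2 and Hdac3 did not.

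The genotypes differed in most genes before TH. In PTU-fed mice, 8 of the 9 genes passed the test between BATKO and WT, against 70.3% of all genes tested, and at 24 h after TH 5 of 9 did, against 69.7%. The largest differences with PTU were Ncoa1 at -1.85 ± 0.11 (SE, adjusted p = 4.61e-15), Ncoa2 at -1.50 ± 0.10 (SE, adjusted p = 2.14e-14), Rxrb at 1.35 ± 0.16 (SE, adjusted p = 1.64e-08) and Rxrg at -1.06 ± 0.14 (SE, adjusted p = 1.61e-07). For Ncoa2, BATKO mice had 258, 288, 249.7, 309.6 and 274 and WT mice 814, 748, 851 and 715 normalised counts, with no overlap. Thrb (-0.60, adjusted p = 0.000442), Hdac3 (-0.38, adjusted p = 0.00024) and Ncor1 (-0.31, adjusted p = 0.00877) were lower, and Rxra was higher (0.25, adjusted p = 0.0108, lost without mouse B2 at adjusted p = 0.0813 and without the filter on low counts at adjusted p = 0.0715). Thra, with 331, 356, 406, 365 and 330.4 in BATKO mice and 352, 300.2, 424 and 386 in WT mice, did not pass (-0.03 ± 0.11 (SE, adjusted p = 0.802)). Its antisense neighbour Nr1d1 had 2273 to 3513 normalised counts in BATKO mice and 342 to 950.3 in WT mice with PTU, and 2292 to 2835 and 402 to 999.7 at 24 h, and was called higher in BATKO mice at both (1.98 ± 0.31 (SE, adjusted p = 2.21e-06) and 1.95 ± 0.32 (SE, adjusted p = 2.84e-06)). Its part in the Thra counts was not tested.

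At 24 h after TH the difference was -1.21 ± 0.11 (SE, adjusted p = 6.29e-11) for Ncoa1, -1.44 ± 0.10 (SE, adjusted p = 6.48e-14) for Ncoa2 and -0.61 ± 0.15 (SE, adjusted p = 0.000536) for Rxrg. Ncor1 was also lower (-0.31 ± 0.10 (SE, adjusted p = 0.00745)), except when only those groups were fitted (-0.31, adjusted p = 0.0537). With DESeq2, Thra (0.24, adjusted p = 0.047) and Rxra (0.22, adjusted p = 0.0223) passed too, at edgeR values of 0.19 ± 0.11 (SE, adjusted p = 0.122) and 0.18 ± 0.09 (SE, adjusted p = 0.0659), so that 7 of 9 were called. Rxrb, at 0.20 ± 0.15 (SE, adjusted p = 0.236), did not pass with either tool, but did with edgeR without mouse B27 (0.36, adjusted p = 0.042), as did Rxra (0.27, adjusted p = 0.00748). In the lists, against the same 70.3% of all genes, the numbers higher and lower in PTU-fed BATKO mice were 3 and 4 of 8 corepressor partners, 1 and 6 of 11 coactivators, 5 and 5 of 11 RXR-pairing receptors, and 0 and 2 of 6 T3-responsive genes. At 24 h after TH, against 69.7% of all genes, they were 3 and 1, 1 and 6, 3 and 4, and 0 and 5 of the same lists. The libraries of the genotypes stood apart in this experiment: BATKO totals were 13593987 to 18073627 counts and WT totals 7805938 to 14615534, and the summed brown adipocyte markers were 1990 to 4155 CPM in BATKO mice against 7065 to 18160 in WT mice. The endothelial markers, of which 4 of 4 were called higher in BATKO mice with PTU and at 24 h, summed to 390 to 545 CPM against 224 to 341 in WT mice, and the white adipocyte markers to 28.1 to 49.3 CPM against 54.1 to 164.5. Of the 3 white adipocyte markers, Retn was called lower and Nnat higher in BATKO mice with PTU and at 24 h, and Lep higher with PTU, so that the sum hides opposite directions. Of the 4 general adipocyte markers 1 was called higher and 3 lower with PTU, and 2 higher and 1 lower at 24 h, where they summed to 7084 to 11800 CPM in BATKO mice and 4023 to 4295 CPM in WT mice. The muscle markers, of which none was called with PTU and 5 of 8 were called lower at 24 h, summed to 1.40 to 294 CPM in BATKO mice and 265 to 1155 CPM in WT mice at 24 h. With PTU and at 24 h, 2 of 3 erythroid markers were called higher and 1 lower, and of 4 fibroblast markers 1 was higher and 2 (PTU) or 3 (24 h) lower. The part of these markers in the genotype differences was not tested. The labels name no batch, so that genotype and library set cannot be told apart.

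The third comparison was cold against thermoneutrality. In CTRL mice, 5 of the 9 genes passed the test, against 49.1% of all genes tested. Rxrg, Rxrb and Ncoa1 were higher at 4 °C, and Ncor1 and Ncoa2 were lower. Over the same groups the summed brown adipocyte markers were 734 to 2805 CPM at 30 °C and 17540 to 22850 CPM at 4 °C. The general adipocyte markers went from 4712 to 5950 CPM to 9447 to 10210 CPM, the erythroid markers from 152 to 282 CPM to 669 to 1449 CPM, the fibroblast markers from 227 to 315 CPM down to 163 to 186 CPM and the immune markers from 36.5 to 66.0 CPM down to 22.8 to 30.8 CPM, each without overlap. Of these lists 7 of 7 brown, 2 of 4 general adipocyte and 2 of 3 erythroid markers were called higher, and 1 general adipocyte, 2 of 4 fibroblast, 2 of 4 tested immune and 2 of 3 white adipocyte markers lower. Their part in these differences was not tested.

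Rxrg had 96.3, 92.2, 96.7 and 115 normalised counts at 30 °C and 269, 298 and 243 at 4 °C. Every mouse at 4 °C had more than double the count of every mouse at 30 °C, and the log2 fold change was 1.43 ± 0.23 (SE, adjusted p = 9.32e-05), with a ratio of means of 2.69. In the same groups the share of Rxrg in the retinoid X receptor level per length was 41.7% ± 5.68 (n = 4) and 62.4% ± 3.75 (n = 3).

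Rxrb had 75.5, 77.4, 75.0 and 85.6 at 30 °C and 157, 128 and 104 at 4 °C. The groups did not overlap, at 0.73 ± 0.20 (SE, adjusted p = 0.00568), and the call was lost without CTRL mouse 1 (0.53, adjusted p = 0.0562). Ncoa1 rose from 766, 766, 661 and 697 to 982, 1102 and 1095 normalised counts, with no overlap and a log2 fold change of 0.55 ± 0.12 (SE, adjusted p = 0.00126).

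Ncor1 fell in the cold, from 791, 769.6, 673 and 712 to 308, 402 and 448 normalised counts, a log2 fold change of -0.93 ± 0.17 (SE, adjusted p = 0.000309). Ncoa2 fell from 450.4, 463, 429 and 363 to 180.3, 238 and 246, with a log2 fold change of -0.95 ± 0.17 (SE, adjusted p = 0.000287). For both, every mouse at 4 °C was below every mouse at 30 °C, and the mean was 0.524 and 0.519 times that at 30 °C. Thra (0.15 ± 0.21 (SE, adjusted p = 0.583)), Thrb (-0.27 ± 0.17 (SE, adjusted p = 0.197)), Rxra (-0.11 ± 0.18 (SE, adjusted p = 0.623)) and Hdac3 (-0.17 ± 0.14 (SE, adjusted p = 0.315)) did not pass.

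**Figure D4:**
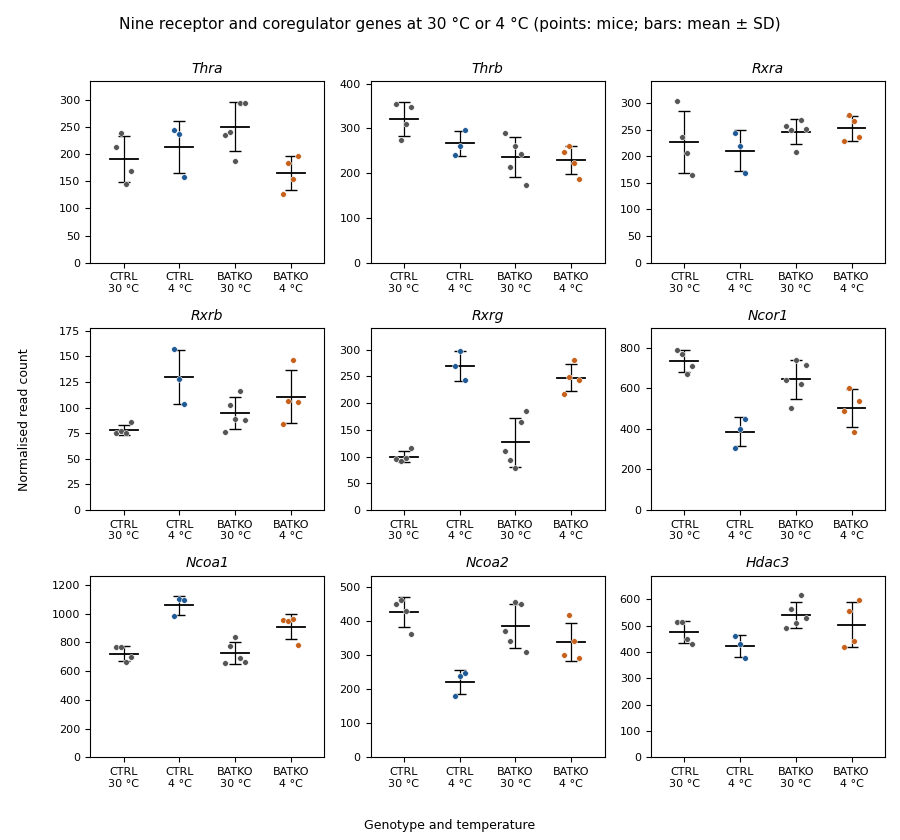
Normalised read counts (y axis, from 0) of the 9 genes in CTRL and BATKO mice kept at 30 °C or 4 °C (x axis); points are mice and bars give the mean ± SD (n = 4, 3, 5 and 4 from left to right). In both genotypes every mouse at 4 °C lies above every mouse at 30 °C for Rxrg, and Ncor1 and Ncoa2 separate the temperatures in CTRL mice.

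In BATKO mice, 3 of the 9 genes passed the test in the cold, against 40.3% of all genes tested. The summed brown adipocyte markers were 1736 to 3069 CPM at 30 °C and 9353 to 17360 CPM at 4 °C, the general adipocyte markers 4645 to 5624 CPM and 8961 to 11310 CPM, and the erythroid markers 149 to 444 CPM and 701 to 970.3 CPM. Of these, 6 of 7, 2 of 4 and 2 of 3 were called higher, and 2 of 3 white adipocyte, 2 of 4 endothelial and 1 of 4 fibroblast markers lower, and their part in the cold differences was not tested. Rxrg had 110.0, 93.8, 78.5, 164 and 185 normalised counts at 30 °C and 218, 249.6, 281 and 243 at 4 °C, with no overlap and a log2 fold change of 0.97 ± 0.20 (SE, adjusted p = 0.00125). The highest count at 30 °C was in mouse 17, which also had the highest muscle marker sum, 8287 CPM. Without the mice above 1000 CPM the value for Rxrg was 1.05, adjusted p = 0.0208 in BATKO mice and 1.35, adjusted p = 0.0032 in CTRL mice.

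Thra had 234, 239.9, 187, 294 and 294 at 30 °C and 126, 184, 154 and 195 at 4 °C in BATKO mice, and fell with a log2 fold change of -0.60 ± 0.19 (SE, adjusted p = 0.019) and overlapping ranges. The call was lost without BATKO mouse 7 (adjusted p = 0.0639) and without the mice above 1000 CPM of muscle markers (-0.57, adjusted p = 0.182). Its antisense neighbour Nr1d1 had 2190.5 to 3313 normalised counts at 30 °C and 846 to 1913 at 4 °C. Ncoa1 rose by 0.33 ± 0.11 (SE, adjusted p = 0.0218), from 659, 777, 840.0, 692 and 663 to 956, 948, 962 and 779, where mouse 12 overlapped the mice at 30 °C. That call was lost without the filter on low counts (0.33, adjusted p = 0.0829), when only the groups compared were fitted (0.32, adjusted p = 0.0507), without any one of mice 7, 8, 11, 13 and 17 (adjusted p = 0.0526 to 0.0655), and without the mice with high muscle markers (0.17, adjusted p = 0.541).

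Ncor1 and Ncoa2, which fell in CTRL mice, were at -0.36 ± 0.15 (SE, adjusted p = 0.0645) and -0.19 ± 0.15 (SE, adjusted p = 0.331) in BATKO mice. Ncor1 passed there with DESeq2 (-0.37, adjusted p = 0.0407) and without mouse 8 or 14 (adjusted p = 0.0325 and 0.0289). The difference between the cold responses was tested as an interaction term, and 0 of 9 genes passed with edgeR, against 1.12% of all genes tested (3 of the 9 had an unadjusted p under 0.05, and DESeq2 called 1). The lowest adjusted p was that of Ncoa2, 0.76 ± 0.23 (SE, adjusted p = 0.0908), which passed with DESeq2 (0.77, adjusted p = 0.0418) and without CTRL mouse 5 (0.85, adjusted p = 0.0495). For Thra the term was -0.75 ± 0.29 (SE, adjusted p = 0.166) and for Ncor1 0.57 ± 0.22 (SE, adjusted p = 0.177).

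Between BATKO and CTRL mice at one temperature, 0 of 9 genes passed at 4 °C, against 2.16% of all genes tested, and 0 of 9 at 30 °C, against 0.00754% (edgeR, with 2 and 1 genes at an unadjusted p under 0.05, and 1 and 0 called by DESeq2). The gene that DESeq2 called at 4 °C was Ncoa2 (0.59, adjusted p = 0.0408), with 302, 417, 343 and 292 normalised counts in BATKO mice against 180.3, 238 and 246 in CTRL mice, which did not overlap. Of the lists, 1 coactivator was called at 4 °C, Ppargc1a, which was lower in BATKO mice (-1.65 ± 0.34 (SE, adjusted p = 0.022)), and none at 30 °C.

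In the pathway lists, to be read against the 49.1% of all genes called in CTRL mice and 40.3% in BATKO mice, cold in CTRL mice raised 3 of 11 coactivators, led by Ppargc1a (2.57 ± 0.35 (SE, adjusted p = 1.74e-05)), and lowered 5, led by Ep300, the p300 acetyltransferase gene (-0.68 ± 0.11 (SE, adjusted p = 0.000122)). Of 8 corepressor partners none rose and 2 fell, led by Sin3a, a scaffold of deacetylase complexes (-1.14 ± 0.18 (SE, adjusted p = 7.52e-05)). Of the 11 RXR-pairing receptors tested, 2 rose, led by Nr1h3, the LXRα gene (1.86 ± 0.26 (SE, adjusted p = 2.18e-05)), and 2 fell, led by Ppara (-1.16 ± 0.38 (SE, adjusted p = 0.0172)), and of the 6 T3-responsive genes 4 rose, led by Ucp1, the uncoupling protein of brown fat (4.40 ± 0.52 (SE, adjusted p = 4.56e-06)). In BATKO mice the numbers that rose and fell were 1 and 2 of the coactivators, 1 and 2 of the corepressor partners, 1 and 1 of the RXR-pairing receptors, and 4 and 1 of the T3-responsive genes. The interaction term was not called for any gene of the 4 lists.

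The fourth comparison was HFD against chow. With edgeR, 0 of the 9 genes passed in CTRL mice, against 3.94% of all genes tested, and 0 of 9 in BATKO mice, against 0.0696%. At an unadjusted p under 0.05 there were 2 in each genotype, and DESeq2 called 1 in CTRL mice and 0 in BATKO mice.

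The gene nearest the threshold in CTRL mice was Rxrg, with 67.9, 80.9, 115 and 118 normalised counts on chow and 174, 173, 122 and 136 on HFD. The HFD mice were all above the chow mice, at 0.66 ± 0.21 (SE, adjusted p = 0.0889), and DESeq2 called it (0.65, adjusted p = 0.0426). The higher chow values came from CTRL mice 3 and 4, whose muscle marker sums were 2250 and 1566 CPM, and without the mice above 1000 CPM Rxrg was at 1.02, adjusted p = 0.0384. Over the same CTRL groups 3 of 7 brown adipocyte, 1 of 4 general adipocyte and 1 of 4 fibroblast markers were called higher, the summed brown adipocyte markers were 2403 to 3943 CPM on chow and 3648 to 5380 CPM on HFD, and their part was not tested. In BATKO mice Rxrg had 79.1 and 144 on chow and 139, 142 and 152 on HFD (0.37 ± 0.27 (SE, adjusted p = 0.533)). Ncoa2 was at -0.30 ± 0.12 (SE, adjusted p = 0.182) in CTRL mice and -0.42 ± 0.16 (SE, adjusted p = 0.252) in BATKO mice. Among BATKO mice the lowest p on HFD was that of Thrb, with 226 and 161 normalised counts on chow and 129.6, 147 and 97.0 on HFD, which did not overlap (-0.63 ± 0.20 (SE, adjusted p = 0.186)), and the value was between -0.85 and -0.37 with a mouse left out.

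The interaction term of diet and genotype was not called for any of the 9 genes with edgeR (0% of all genes tested, 0 of 9 at an unadjusted p under 0.05, and 0 of 9 with DESeq2). Between BATKO and CTRL mice, 0 of 9 genes passed on chow, against 0% of all genes tested, and 0 of 9 on HFD, against 0% (1 of 9 at an unadjusted p under 0.05 in each, with 0 and 1 called by DESeq2). Over all genes, 1024 on chow and 691 on HFD had an unadjusted p under 0.05, and DESeq2 called 31 and 9. Of the pathway lists in CTRL mice on HFD, against 3.94% of all genes, 1 RXR-pairing receptor rose, Pparg, the master regulator of adipocytes (0.43 ± 0.11 (SE, adjusted p = 0.04)), 2 fell, led by Nr4a1 (-2.15 ± 0.46 (SE, adjusted p = 0.0211)), and 2 T3-responsive genes fell, led by Me1 (-1.02 ± 0.19 (SE, adjusted p = 0.0108)). No gene of the coactivator or corepressor lists was called.

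Between BATKO and CTRL mice on HFD, Thrb had the lowest unadjusted p of the listed genes, but did not pass the test in edgeR. BATKO mice on HFD had 129.6, 147 and 97.0 normalised counts and CTRL mice 275, 207, 268 and 282, with no overlap and 0.482 times the mean. The log2 difference was -1.05 ± 0.17 (SE, adjusted p = 0.139) in edgeR, with an unadjusted p of 2.16e-05. DESeq2 called it (-1.05, adjusted p = 0.0001), as did edgeR without the filter on low counts (-1.05, adjusted p = 6.72e-05). With each mouse left out in turn the log2 difference was between -1.18 and -0.89 and the adjusted p between 0.0822 and 0.836.

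The mean of Thrb was lower in BATKO mice in all 6 comparisons of the genotypes, which share no mice. This was not particular to Thrb, as the mean of Rxra was higher in BATKO mice in all 6. The log2 differences of Rxra ran from 0.11 at 30 °C to 0.26 at 4 °C. The share of all genes with 1 direction throughout was not counted. For Thrb on chow, BATKO mice had 226 and 161 and CTRL mice 299.8, 281, 236 and 310.0, with no overlap (-0.54 ± 0.19 (SE, adjusted p = 0.465)). With only 2 BATKO mice on chow, the value was -0.81 without BATKO mouse 5 and -0.32 without BATKO mouse 6. At 30 °C, BATKO mice had 289.9, 214, 261, 242 and 174 and CTRL mice 355, 274, 309.9 and 349 (-0.45 ± 0.15 (SE, adjusted p = 0.542)), and at 4 °C 247, 260.2, 222 and 188 and 242, 262 and 298 (-0.22 ± 0.17 (SE, adjusted p = 0.558)), with overlap at both temperatures.

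In the TH experiment, PTU-fed BATKO mice had 235, 264, 391, 369.5 and 287 and WT mice 442, 456, 489.7 and 496, with no overlap (-0.60 ± 0.14 (SE, adjusted p = 0.000442)). At 24 h after TH they had 372, 502, 377, 346 and 277 and 490.5, 591, 565 and 566, where BATKO mouse 8 overlapped the WT mice (-0.56 ± 0.14 (SE, adjusted p = 0.000945)). The test was passed in these latter 2 of the 6 comparisons, in which about 70% of all genes also passed.

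**Figure D5:**
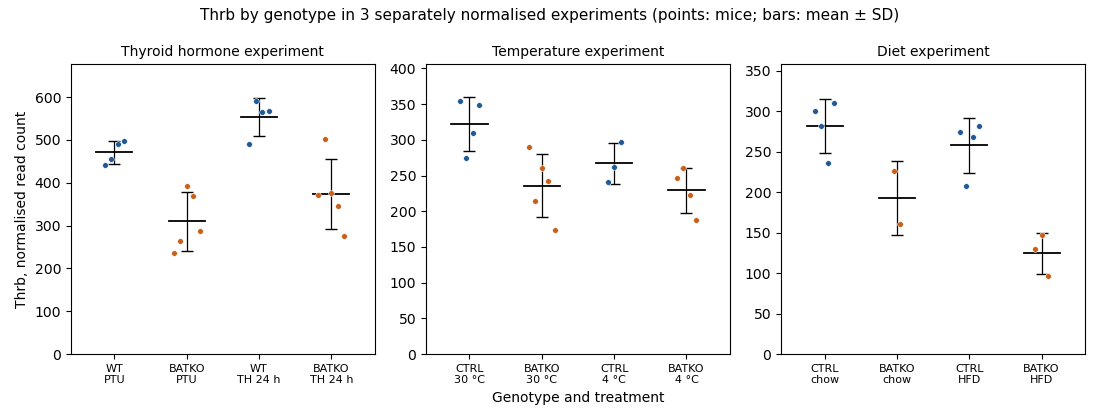
Normalised read counts of Thrb (y axis, from 0, scaled separately in each of the 3 experiments) in control (WT or CTRL) and BATKO mice by treatment (x axis); points are mice and bars give the mean ± SD. The mean is lower in BATKO mice in all 6 pairs, and the groups do not overlap with PTU, on chow and on HFD.

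Over the 30 mice of the TH experiment, the genes whose log2 CPM followed Thra most closely among 9945 genes with a mean count above 50 were Zmym3 (Pearson r = 0.819), Rnf114 (r = 0.804) and Kif13b (r = 0.785). For Thrb they were Gk5 (r = 0.892), Gsk3b (r = 0.864) and Med13l (r = 0.841). These correlations describe mice of 7 groups that share treatment, genotype and library set, and were not tested.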

How the data were processed

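BAT RNA was extracted with Trizol and a total RNA kit gave 1 library per mouse. The submitters' processing notes name Bowtie2 2.3.2.2, DESeq2 and the mm10 build, and the counts were deposited with no normalization. For its own re-analysis of downloaded reads, the paper names Bowtie, removal of reads of alignment quality under 10, and htseqcount. Whether the deposited counts were made with these same steps was not checked. Annotation and strand setting are not given in the sources used here. Columns were matched to mice by the labels, with 0 unmatched. Among 91 pairs of mice of a group, the chi-square per degree of freedom was at least 6.81, so that none looked like a duplicated library.

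The 9 genes and the pathway and marker lists were chosen with earlier results of these data known, and 1 gene of the corepressor list is not reported here. Tests used edgeR (version 4.0.16, R version 4.3.3), with TMM normalization, its quasi-likelihood test on genes whose mean normalised count exceeded 10, Benjamini-Hochberg adjustment over all genes tested and a threshold of 0.05. Standard errors were derived from the F statistic. Fits covered the 20 WT mice for the time course, all 30 mice for BATKO and interaction terms, and the 16 and 13 mice of the temperature and diet experiments. No source says whether mice were littermates or housed together, and p-values measure the spread between these mice. Of each pathway list, the gene with the lowest adjusted p in each direction could be named, with Nr1d1 as the antisense neighbour of Thra and the 3 genes most correlated with Thra and with Thrb. The Thra to Thrb ratio was tested by exact permutation in Python (version 3.11.15) with SciPy (version 1.17.1). Alternatives were DESeq2 (version 1.42.0), RLE size factors, no filter or a minimum mean of 50, fits restricted to the groups compared or widened to all 30 mice, 10 added to counts in the ratio, the longest transcript as length, each mouse left out in turn, and, chosen after seeing the data, leaving out mice above 1000 CPM of muscle markers. The scripts were tested on simulated data. The precision of a count is limited by the total count per mouse.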

Additional observations from a re-analysis of the deposited data

Results flagged for a closer look

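In 5 of 108 tested combinations of a gene and a group of 4 or 5 mice, 1 mouse stood apart from the others by Dixon's ratio of its gap to the range of the group. Chance alone gives about 1 in 20, or 5.4 here. Thra in CTRL mouse 9 on HFD (ratio 0.9434) was at 191 normalised counts against 91.6 to 97.2 in the other mice, and Rxrb in the same mouse (ratio 0.8303) was at 94.5 against 57.4 to 63.7. The muscle marker sum of that mouse was 566 CPM, the highest of its group. Rxra in CTRL mouse 11 on HFD (ratio 0.9093) was at 246 against 152 to 161. Ncoa1 in BATKO mouse 12 at 4 °C (ratio 0.9204) was at 779 against 948 to 962, and that mouse had the lowest muscle marker sum of its group, 5.83 CPM. Thra in WT mouse B21 at 12 h after TH (ratio 0.8431) was at 271 against 217 to 226. What set these mice apart was not tested.

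The responses of 2 genes to TH at 24 h differed between BATKO and WT mice by the interaction term of edgeR. The term was -1.15 for Rxrb (adjusted p = 0.000997) and 0.64 for Ncoa1 (adjusted p = 0.0066). In both cases the BATKO mice already differed from WT mice with PTU in the direction of the WT response, and the genotype cannot be told apart from the library set.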

How the results depend on the processing

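No paired analysis was possible because within an experiment mouse numbers do not repeat in a genotype, and a number found in both genotypes names different animals. Of the 9 genes, the number called at 3 h in WT mice was 1 instead of 3 without a filter and in a fit of all 30 mice (Rxrg and Ncoa1 lost), and 1 to 3 with a mouse left out. It was 2 to 4 at 6 h with a mouse left out. At 24 h it was 3 instead of 5 when only the groups compared were fitted (Thra and Hdac3 lost), and 3 to 5 with a mouse left out. For cold in BATKO mice it was 1 instead of 3 without the mice above the muscle limit and 1 to 4 with a mouse left out. Where edgeR called 0, DESeq2 called 1 for BATKO against CTRL at 4 °C (Ncoa2), for the cold interaction (Ncoa2; 0 to 1 with a mouse left out), for HFD in CTRL mice (Rxrg) and for BATKO against CTRL on HFD (Thrb). For BATKO against WT at 24 h after TH, DESeq2 called 7 (Thra and Rxra added) and edgeR 5. No filter gave 1 for the HFD comparisons of CTRL mice and of the genotypes, and the muscle limit gave 1 for HFD in CTRL mice. RLE size factors added calls for Rxra at 24 h after TH between the genotypes (0.21, adjusted p = 0.0274) and for Ncor1 between 3 h and 24 h (0.29, adjusted p = 0.0476), and a minimum mean of 50 added the latter (0.28, adjusted p = 0.044). The cause was not tested.

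The difference of the Thra to Thrb log2 ratio between 3 h and PTU was between -0.00068 and 0.15 with a mouse left out, and turned sign without B3. With the longest transcript as length, Thra made up 66.1% of the receptor pair in PTU-fed WT mice instead of 55.3%, and 59.6% instead of 48.5% at 30 °C. The share of Rxrb was 10.5% instead of 7.85%, 24.2% instead of 18.9% at 30 °C, and 23.5% instead of 18.3% on chow.

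Numbers of all genes called moved by over 1.5 times in the following comparisons. BATKO against CTRL at 4 °C gave 286 genes with edgeR, 639 with DESeq2, 61 when only those groups were fitted and 97 without mice of high muscle markers. At 30 °C it gave 1 and DESeq2 gave 8. The cold interaction gave 149, against 645 with DESeq2 and 6 under the muscle limit, and cold in BATKO mice gave 5340 against 2216 under that limit. HFD in CTRL mice gave 509, against 872 with DESeq2, 1280 without a filter and 321 with only those groups. HFD in BATKO mice gave 9, against 235, 336 and 66, and 4 under the muscle limit. BATKO against CTRL on chow gave 0, against 31, 290 and 114, and on HFD 0, against 9 with DESeq2 and 59 without a filter. The diet interaction gave 0, against 216 without a filter. Depth limits the genes of low counts, such as Rxrb in PTU-fed WT mice.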
